A study of Homo sapiens with 14 samples.

Results

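CEACAM adhesion molecules are a family of cell surface glycoproteins built from immunoglobulin-like domains. The genes of the family measured in Kasumi-1 cells were those whose symbol starts with CEACAM in either deposited gene table. There were 4 of them, CEACAM1, CEACAM6, CEACAM19 and CEACAM21, among 16604 genes in either table. CEACAM6 was chosen by its log2 change after knockdown of RBPMS, the largest rise in that experiment. Its knockdown values are therefore a description without a test, whereas the other 3 genes were taken by name alone.

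Kasumi-1 is an established myeloblast line of acute myeloid leukemia from peripheral blood with a translocation between chromosomes 8 and 21, and all groups below are of this 1 line. In the first experiment cells were infected with lentivirus carrying an shRNA against RBPMS, which encodes an RNA-binding protein (shRBPMS, n = 3), or a scramble control shRNA (shCtrl, n = 3). Infection lasted 48 h and puromycin selection another 48 h. In the second, cells were treated with RB98#, named here only by this code (RB98#, n = 2), or with DMSO (DMSO, n = 2), at a dose and for a time that the labels do not give. The labels do not say how many shRNA sequences were used, nor whether replicates came from separate cultures, so p-values may measure technical spread only.

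Most CEACAM proteins bind one another on neighbouring cells through their outermost domain, and several are docking points for bacteria. CEACAM1 spans the membrane and carries inhibitory tyrosine motifs in its tail that recruit the phosphatases SHP-1 and SHP-2. CEACAM6 has no tail and is held in the outer membrane leaflet by a glycosylphosphatidylinositol (GPI) anchor. In blood it is known as CD66c, a surface protein of granulocytes, and it is also made by many epithelia and carcinomas. CEACAM3, CEACAM4 and CEACAM8 are likewise best known from granulocytes, and CEACAM5 is the carcinoembryonic antigen of gut epithelium and its tumors.

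The family sits on chromosome 19, and CEACAM6 lies in the middle of a cluster with CEACAM5 on one side and CEACAM3 on the other. CEACAM6 (ENSG00000086548) spans chr19:41750977-41772208 on the plus strand of GRCh38 in the GENCODE v29 annotation. CEACAM21 (ENSG00000007129) lies at chr19:41549518-41586844 on the plus strand, CEACAM1 (ENSG00000079385) at chr19:42507304-42561234 on the minus strand, and CEACAM19 (ENSG00000186567) at chr19:44662278-44684359 on the plus strand. Each of them codes for protein.

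The sequence before the start of CEACAM6 is shown because this member alone had a large change, and the starts of CEACAM1 and CEACAM21 are shown for comparison. They come from RefSeq on GRCh38.p14, 5′ to 3′ on the strand of the gene, and bases that a GENCODE exon covers were left out next to the start. These RefSeq starts differ from the GENCODE v29 gene starts, and each stretch shown here lies inside the GENCODE span of its gene. Capitals mark the words TGTGGT or ACCACA, a core bound by RUNX factors, and GAGGAA or TTCCTC, a core bound by PU.1 and other ETS factors. RUNX1 is the factor fused to RUNX1T1 in Kasumi-1.
CEACAM6, chr19:41755280-41755420, plus strand: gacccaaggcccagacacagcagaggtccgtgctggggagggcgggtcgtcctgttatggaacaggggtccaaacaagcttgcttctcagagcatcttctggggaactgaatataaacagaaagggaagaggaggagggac
CEACAM1, chr19:42528510-42528731, minus strand: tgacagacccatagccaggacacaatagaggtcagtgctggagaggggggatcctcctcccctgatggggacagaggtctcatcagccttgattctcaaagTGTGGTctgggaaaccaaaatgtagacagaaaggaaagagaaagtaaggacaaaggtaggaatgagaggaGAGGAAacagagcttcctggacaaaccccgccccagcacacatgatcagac
CEACAM21, the start that resembles CEACAM6, chr19:41575916-41576165, plus strand: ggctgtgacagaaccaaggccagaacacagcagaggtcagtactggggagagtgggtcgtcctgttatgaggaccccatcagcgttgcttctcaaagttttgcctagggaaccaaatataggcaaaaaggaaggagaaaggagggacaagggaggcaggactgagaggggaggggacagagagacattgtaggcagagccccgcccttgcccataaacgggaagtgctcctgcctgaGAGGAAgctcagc

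Over 250 bases before the start, aligned end to end, CEACAM6 shared 79.0% of positions with CEACAM7 and 73.6% with CEACAM5. It shared 70.0% with this second start of CEACAM21, 69.4% with CEACAM3, 68.7% with CEACAM4 and 67.6% with CEACAM1. The first start of CEACAM21 shared 42.9%. Bases shortly after the start were found in a GENCODE v29 transcript for the other genes named here, but for neither start of CEACAM21. Searched on both strands over the whole 250 bases, CEACAM6 held neither the RUNX core nor the PU.1 core. Of 35116 RefSeq stretches of the same length, 11% held the RUNX core and 23.6% the PU.1 core. TTGCNNAA, a C/EBP word where N is any base, was absent from CEACAM6 and held by 9.05% of all stretches. CEACAM6 held GGGCGG, a GC box not put in capitals above, at bases -211 to -206, and 42.6% of all stretches held this word. CEACAM6 and CEACAM5 held CACGTG, the palindromic E-box bound by USF and MYC family factors, which 6.34% of all stretches held and 2 of the 14 CEACAM stretches did. It lay at bases -45 to -40 before the RefSeq start of CEACAM6 and -46 to -41 before that of CEACAM5. In GENCODE v29 CEACAM6 begins at 41750977, so its E-box at 41755485 to 41755490 lies inside the gene. That E-box is within the 109 bases left out above for GENCODE exons. CEACAM5 begins in GENCODE v29 at 41708585, the last base of its E-box. The 30 bases around each E-box are shown with the E-box in capitals. These are matches of letters in a window and not measured binding sites.
CEACAM6, chr19:41755473-41755502, plus strand: gcacccatgaccCACGTGaccctgggaaat
CEACAM5, chr19:41708568-41708597, plus strand: acacccatgaccCACGTGatgctgagaagt

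Library totals were 25.22 to 27.66 M counts in shRBPMS (1 M is 1e6) and 24.03 to 34.38 M in shCtrl, and 13.85 to 15.19 M with RB98# and 14.18 to 15.35 M with DMSO. The knockdown library labels form 2 sets. Replicate 1 of each group is in set 1, where mitochondrially encoded genes took 13.2% of counts in shRBPMS and 15.2% in shCtrl, and replicates 2 and 3 are in set 2, where they took 6.20% to 6.95%. RBPMS itself, the target of the shRNA, was counted 62, 95 and 86 times in shRBPMS, against 458, 202 and 259 times in shCtrl, with no overlap. Its log2 change was -1.79 when replicate numbers entered the edgeR fit as a block (adjusted p = 0.0106) and -1.96 without the block (adjusted p = 0.0846, edgeR). Levels below are CPM, that is counts per 1e6 after scaling each library by its TMM factor. Of 16215 genes tested with edgeR in the knockdown without the block, 320 passed at an adjusted p of 0.05 (1.97%), of which 102 rose (0.629%) and 218 fell (1.34%). With the block 2157 rose (13.3%) and 2392 fell (14.8%). Whether same-numbered libraries of the 2 groups belong together is not given in the labels, so calls with the block rest on that pairing. With RB98#, 2530 of 12324 genes rose (20.5%) and 2129 fell (17.3%).

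CEACAM6 was near absent in shCtrl and plainly present in shRBPMS. It was counted 788, 739 and 595 times in the shRBPMS libraries, against 3, 11 and 6 times in the shCtrl libraries. Every shRBPMS library lay far above every shCtrl library. Of all genes tested, 12.3% were higher without overlap by any margin, however small. The level was 32.1, 26.0 and 21.3 CPM in shRBPMS and 0.134, 0.394 and 0.171 CPM in shCtrl, with means of 26.5 ± 5.44 and 0.233 ± 0.141 CPM (SD, n = 3 each). In bulk RNA, more cells with CEACAM6 RNA and more of it per cell cannot be told apart.

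The log2 change of CEACAM6 was 6.79 (6.75 with the block). The summed counts, 2122 in shRBPMS and 20 in shCtrl, gave a ratio of 112 after scaling, with a 95% interval of 72.3 to 184 that covers counting error only. The size of the ratio rests on the few shCtrl counts. Within set 1 it was 240 (81.9 to 1168) from 788 and 3 counts, and within set 2 it was 87.5 (54.4 to 151) from 1334 and 17 counts. Over all pairs of an shRBPMS and an shCtrl library the ratio ran from 54.0 to 240. The spread within shRBPMS was small beside this, at an SD of 0.297 on the log2 scale, against 0.818 in shCtrl.

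**Figure D1:**
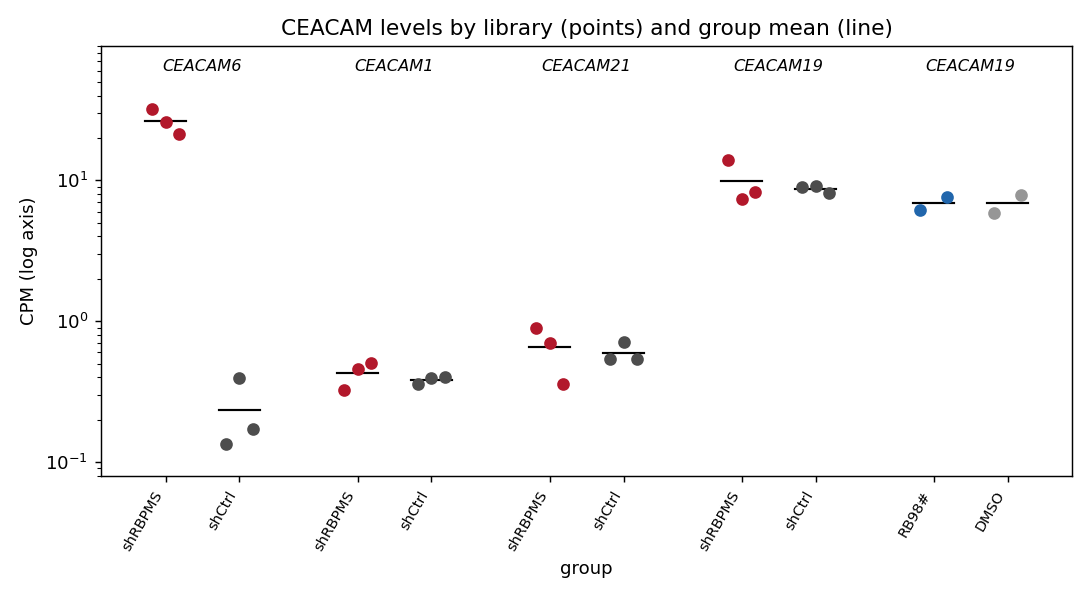
Level of each CEACAM gene in every library, in CPM on a log axis. Points are libraries and lines are group means, with shRBPMS (red) beside shCtrl (dark grey) and, for CEACAM19, RB98# (blue) beside DMSO (light grey). CEACAM6 is at 21.3 to 32.1 CPM in shRBPMS and at 0.134 to 0.394 CPM in shCtrl, while the groups of the other genes overlap.

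The deposited table also holds adjusted signal values, which the authors made in a way not given in the sources used here. The adjusted signal of CEACAM6 was 764, 771 and 555 in shRBPMS and 4.6, 12 and 4.76 in shCtrl. In the authors' deposited table its log2 fold change was 6.63. Both scales place every shRBPMS library above every shCtrl library.

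Among the 16215 genes tested, CEACAM6 ranked first by log2 change and was the 1 gene (0.00617%) at 4 or more, while 8 genes (0.0493%) lay 4 or more below 0. The next rises belonged to SIGLEC6, a sialic acid-binding lectin of the immunoglobulin superfamily (3.48), P2RY14, a receptor for nucleotide sugars (3.46), and the noncoding gene AL596244.1 (3.30). SIGLEC6 was counted 43, 34 and 27 times in shRBPMS, against 0, 3 and 7 times in shCtrl. P2RY14 was counted 67, 58 and 30 times in shRBPMS, against 4, 2 and 9 times in shCtrl. Both stayed under 3 CPM in every library. Of 2037 genes under 1 CPM in every shCtrl library, CEACAM6 was the 1 gene that reached 5 CPM in every shRBPMS library. At a limit of 2 CPM there were 6 such genes, CEACAM6 with LGALS1, CD300LF, PCDH11X, SLC16A6 and SLC25A45.

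**Figure D2:**
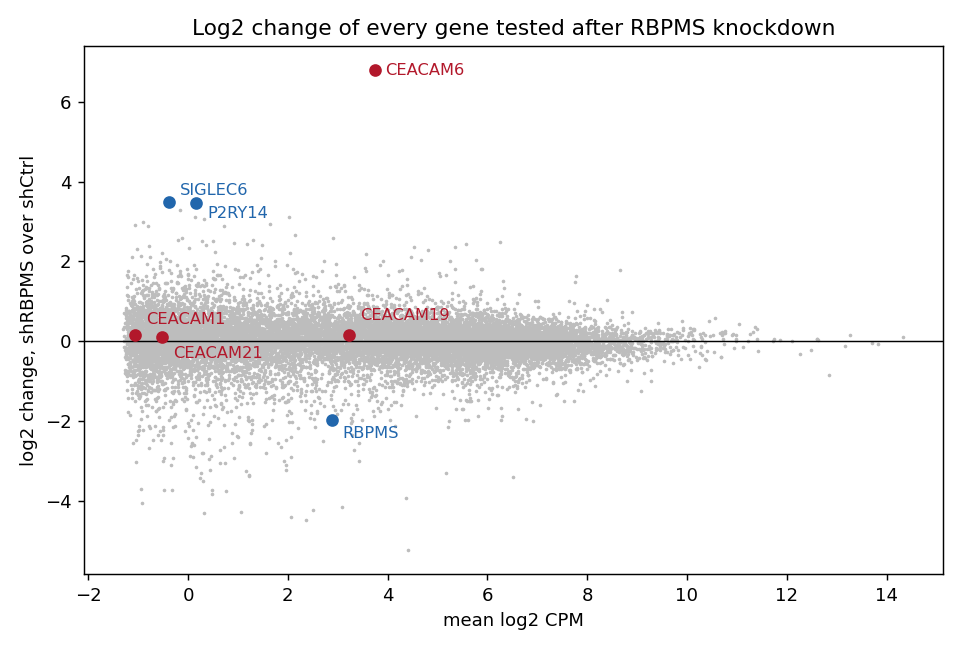
Log2 change, shRBPMS over shCtrl, of each of the 16215 genes tested, against the mean log2 CPM over the 6 knockdown libraries. CEACAM6 stands alone at 6.79, SIGLEC6 and P2RY14 follow at 3.48 and 3.46, and CEACAM1, CEACAM19 and CEACAM21 lie near 0.

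The first rank holds for the genes that passed the filter on low counts. A larger log2 fold change than that of CEACAM6 stood beside 4 genes of the authors' deposited table, namely IRS4 (7.50), FP671120.2 (7.42), P2RY13 (7.34) and AC243967.2 (7.18), and none of them passed the filter. All had a summed count of 0 in shCtrl, and summed counts of 27 to 50 in shRBPMS, against 2122 for CEACAM6.

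AC243967.2 (ENSG00000268833), one of these, is an antisense gene that overlaps CEACAM6. It spans chr19:41757898-41786893 on the minus strand, with an exon inside an intron of CEACAM6. It was counted 3, 13 and 11 times in shRBPMS, against 0, 0 and 0 times in shCtrl. Set against an assumed 3 counts over the shCtrl group, its 27 counts would be 9.49-fold higher. A summed count of 27 is also the lowest of any gene with a row in the knockdown. The gene thus has a row only through its shRBPMS counts, so the lack of shCtrl counts is no separate result. It shares 0 exon bases with CEACAM6, so the CEACAM6 counts do not fall in its exons. Whether counting used strand is not given in the sources used here. Without strand, reads from this gene and from unspliced CEACAM6 RNA cannot be told apart. The other overlapping gene, AC243967.1, shares 172 exon bases with CEACAM6 on the same strand and had no row.

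Family members resemble each other, so reads could in principle be shared. Of all 50-base words in the CEACAM6 transcripts of GENCODE v29, 4.06% also occurred in another CEACAM or PSG transcript, with CEACAM5 the closest at 1.33%. No 100-base word did. The shares at 50 bases were 2.62% for CEACAM1, 0.998% for CEACAM21 and 0 for CEACAM19. CEACAM5 itself had no row in the table.

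CEACAM1, the inhibitory member, stayed at trace level. It was counted 8, 13 and 14 times in shRBPMS, against 8, 11 and 14 times in shCtrl, and the groups overlapped. The means were 0.428 ± 0.0908 CPM in shRBPMS and 0.384 ± 0.0235 CPM in shCtrl (SD, n = 3 each). The log2 change was 0.16 (SE 0.32, 95% interval -0.60 to 0.91, adjusted p = 0.89, edgeR). At this depth neither a fall nor a rise within that interval was detectable.

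CEACAM21, a transmembrane member of less known function, was likewise low. It was counted 22, 20 and 10 times in shRBPMS, against 12, 20 and 19 times in shCtrl, again with overlap. The means were 0.652 ± 0.273 CPM in shRBPMS and 0.598 ± 0.103 CPM in shCtrl (SD, n = 3 each). The log2 change was 0.12 (SE 0.40, 95% interval -0.83 to 1.07, adjusted p = 0.944, edgeR). The ratio was 1.68 in set 1 (0.795 to 3.72 from counting error) and 0.858 in set 2 (0.515 to 1.42). Without shRBPMS replicate 1 the log2 change was -0.17, so no direction is given for CEACAM21.

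CEACAM19, another transmembrane member of less known function, was the family member with the highest level in shCtrl. It was counted 341, 210 and 232 times in shRBPMS, against 200, 256 and 285 times in shCtrl. The means were 9.86 ± 3.53 CPM in shRBPMS and 8.74 ± 0.544 CPM in shCtrl (SD, n = 3 each). The single library above the rest was shRBPMS replicate 1, at 13.9 CPM, while the other 5 libraries lay between 7.38 and 9.18 CPM. The log2 change was 0.17 (SE 0.26, 95% interval -0.45 to 0.80, adjusted p = 0.84, edgeR), and 0.12 with the block (adjusted p = 0.663).

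The label sets differed for CEACAM19. The ratio of shRBPMS over shCtrl was 1.56 in set 1 (1.31 to 1.87 from counting error), from 1 library a group, and 0.911 in set 2 (0.802 to 1.04). Without shRBPMS replicate 1 the log2 change was -0.16, so no direction is given for this gene either. CEACAM19 shares 121 exon bases with PVR, a nectin-like adhesion molecule on the same strand, so some of its reads could belong to PVR. PVR was counted 1001, 1098 and 1108 times in shRBPMS, against 821, 1179 and 1380 times in shCtrl.

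CEACAM19 was also the 1 member with a row in the RB98# table, and this contrast had no part in choosing the members. It was counted 90 and 102 times with RB98#, against 86 and 126 times with DMSO. The level was 6.14 and 7.62 CPM with RB98#, against 5.87 and 7.91 CPM with DMSO. Both RB98# libraries lay between the 2 DMSO libraries. The log2 change was -0.01 (SE 0.20, 95% interval -0.42 to 0.40, adjusted p = 0.973, edgeR), in a fit where 37.8% of all genes passed. The groups of CEACAM19 overlapped, whereas those of 68.3% of all genes did not.

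The other members had no row in the RB98# table, whose rarest gene had a summed count of 50 over 4 libraries, or 0.854 CPM. Their level with RB98# and DMSO is not known from these data beyond that. RBPMS did not pass there (log2 change 0.11, adjusted p = 0.678, edgeR).

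The list of 12 protein-coding family members was otherwise empty. CEACAM3, CEACAM4, CEACAM5, CEACAM7, CEACAM8, CEACAM16, CEACAM18 and CEACAM20 had a row in neither table. So the granulocyte members CEACAM3, CEACAM4 and CEACAM8 and the carcinoembryonic antigen CEACAM5 were below the tables' lower limit or not listed for another reason. In the knockdown table the rarest gene had a summed count of 27 over 6 libraries, or 0.163 CPM. None of 13 listed CEACAM pseudogenes and antisense genes, and none of 10 PSG genes, the related pregnancy-specific glycoproteins, had a row in either table.

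Divided by exon length, the levels can be set side by side. In shRBPMS, CEACAM6 stood first at 8.67 ± 1.78 CPM per kb, before CEACAM19 at 1.89 ± 0.679, CEACAM21 at 0.332 ± 0.139 and CEACAM1 at 0.0775 ± 0.0164 CPM per kb (SD, n = 3), and no 2 neighbours in this order overlapped. In shCtrl, CEACAM19 stood first at 1.68 ± 0.104 CPM per kb and CEACAM21 next at 0.305 ± 0.0525. CEACAM6 at 0.0764 ± 0.0462 and CEACAM1 at 0.0694 ± 0.00425 CPM per kb followed, with overlapping libraries. With RB98# CEACAM19 was at 1.32 ± 0.2 CPM per kb, against 1.32 ± 0.276 with DMSO (SD, n = 2 each), values scaled apart from the knockdown. Among 16195 genes ranked by CPM per kb, CEACAM6 was above 64.5% to 74.1% of genes in the shRBPMS libraries and above 1.0% to 4.64% in the shCtrl libraries.

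The tested genes around CEACAM6 did not share its rise. The overlapping antisense gene AC243967.2 was not tested, and it had a row only through its shRBPMS counts. Within 500 kb GENCODE v29 lists 62 genes, and 24 neighbours were tested in the knockdown. Without the block 0 rose and 0 fell, where 1.97% of all genes passed. The log2 changes of these neighbours ran from -0.83 to 0.38 with a median of 0.10, against 0.02 over all genes tested. Across the whole table edgeR gave 2733 genes an unadjusted p under 0.05, a looser limit than the one used for the neighbours. With the block 4 neighbours rose, namely TGFB1 (0.29), ARHGEF1 (0.33), ERF (0.29) and CIC (0.36), and RABAC1 fell (-0.72). These 5 of 24 compare with 28.1% of all genes in that fit.

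The nearest tested genes were RPS19, a ribosomal protein 87.7 kb downstream, and CEACAM21, at -164.1 kb, upstream. RPS19 averaged 844 ± 431 CPM in shRBPMS and 757 ± 403 CPM in shCtrl (SD, n = 3 each), with a log2 change of 0.16 (adjusted p = 0.949, edgeR). CEACAM3, CEACAM4, CEACAM5 and CEACAM7, which lie between them, had no row. With RB98#, 21 neighbours were tested, 5 rose and 3 fell, a share close to the 37.8% of all genes. CIC, a transcriptional repressor, had the largest of these rises (0.87, 123 ± 3.34 CPM with RB98# and 67.0 ± 3.86 with DMSO).

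**Figure D3:**
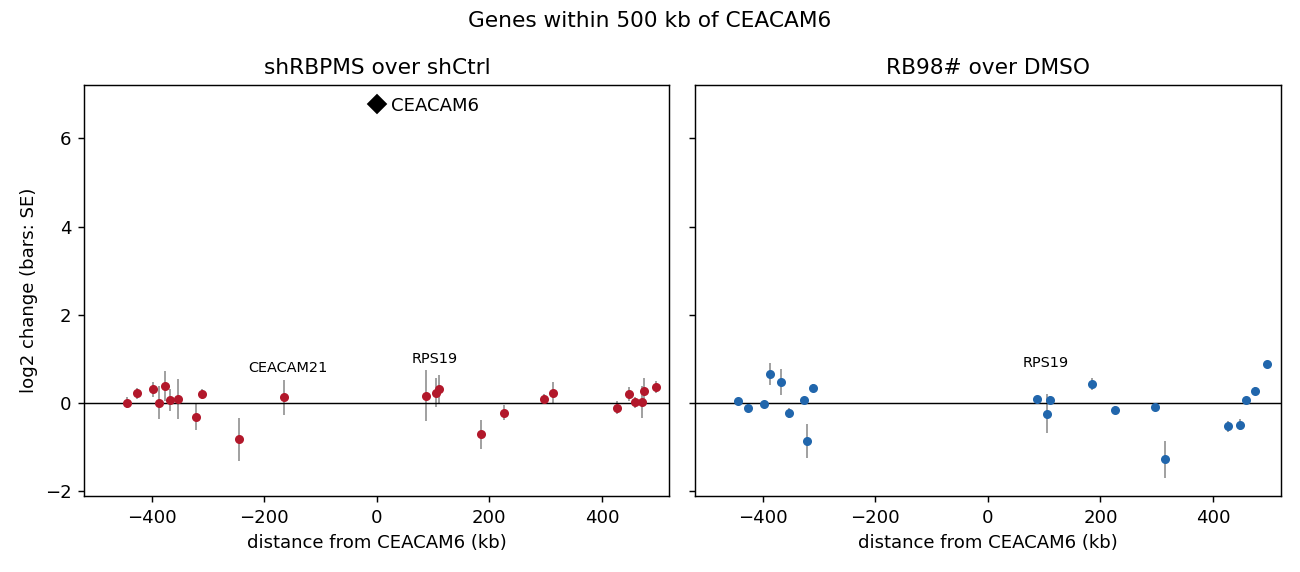
Log2 change of each tested gene within 500 kb of CEACAM6 against its distance in kb, for shRBPMS over shCtrl (left) and RB98# over DMSO (right), with bars of 1 SE. The diamond is CEACAM6 at 6.79 in the knockdown, and the 24 neighbours there lie between -0.83 and 0.38.

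Genes whose level followed CEACAM6 across the 6 knockdown libraries were ranked by Pearson's r on log2 CPM, taken over the 10606 genes whose mean log2 CPM reached 2. The highest values were those of ASAH1, the lysosomal acid ceramidase (r = 0.9973, log2 change 0.45), ARHGAP1, a GTPase-activating protein (0.9965, 1.49), and RASAL3, a Ras GTPase-activating protein (0.9964, 2.19). MFSD9, a membrane transporter protein (0.9964, 0.77), followed, and 30 genes reached 0.99. CEACAM6 splits the libraries by group, so a gene scores high here when its groups lie far apart for their spread, whatever the size of its change. With RB98#, ARHGAP1 fell (log2 change -0.56, adjusted p = 0.000154), and ASAH1 (0.07), RASAL3 (-0.14) and MFSD9 (-0.11) did not pass, all in edgeR.

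CEACAM6 is a GPI-anchored protein, and other such proteins of blood cells were listed beside it. Of 14 tested in the knockdown, 0 passed without the block, where 1.97% of all genes did, and their median log2 change was -0.08. With the block 6 rose and 5 fell, in a fit where 28.1% of all genes passed. The largest of these changes was that of CD109 (log2 change with the block -2.86, adjusted p = 0.00395, edgeR). Its level was 6.71 ± 0.201 CPM in shRBPMS and 65.2 ± 64.1 CPM in shCtrl, a wide spread. CD48, a ligand of lymphocyte receptors, averaged 0.611 ± 0.218 CPM in shRBPMS and 1.94 ± 0.235 CPM in shCtrl (log2 change with the block -1.65, adjusted p = 0.00998, edgeR). CD52 averaged 2.40 ± 0.423 CPM in shRBPMS and 0.901 ± 0.540 CPM in shCtrl (1.51 with the block, adjusted p = 0.0297, edgeR). With RB98#, 4 of 15 rose and 1 fell, a share near the 37.8% of all genes. The largest of these changes was that of PLAUR, the urokinase receptor, at 44.9 ± 0.381 CPM with RB98# and 15.6 ± 0.838 CPM with DMSO (log2 change 1.53, adjusted p = 1.94e-11, edgeR).

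All 26 genes of GPI anchor synthesis and attachment were measured. In the knockdown PIGS, a subunit of the transamidase that attaches the anchor, fell to 65.4 ± 2.07 CPM in shRBPMS, against 130 ± 5.58 CPM in shCtrl (log2 change -0.99, SE 0.11, adjusted p = 0.0222, edgeR), and 0 rose, against 1.97% of all genes called. With the block 6 rose and 1 fell, a share near the 28.1% of all genes. The median was 0.15. With RB98# 3 rose and 4 fell, against 37.8% of all genes called, among them PIGM (-0.81) and PIGQ (-0.57), with a median of -0.05. When any one of shRBPMS replicates 2 and 3 and shCtrl replicates 2 and 3 was left out, the call of PIGS was lost, as it was without shRBPMS replicate 1. The fits without a replicate 2 or 3 called 0, 0, 2 and 0 genes of the whole table. A call lost in those fits, here and below, is therefore not particular to the gene.

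Among other adhesion molecules of the immunoglobulin superfamily, 20 were tested in the knockdown, and 0 rose and 2 fell without the block, with a median of -0.21, where 1.97% of all genes passed. MCAM, a melanoma and endothelial adhesion molecule, fell to 0.814 ± 0.347 CPM in shRBPMS, against 6.60 ± 0.546 CPM in shCtrl (log2 change -3.0, SE 0.33, adjusted p = 0.0222, edgeR). JAM3, a junctional adhesion molecule, fell to 39.6 ± 5.14 CPM in shRBPMS, against 75.9 ± 6.58 CPM in shCtrl (-0.94, SE 0.15, adjusted p = 0.0353, edgeR). With the block 6 rose, among them NECTIN1 (1.31), and 6 fell, against 28.1% of all genes called. With RB98# 3 of 20 rose and 2 fell, against 37.8% of all genes called, among them NECTIN2 (0.42) and PVR (-0.43). When any one of shRBPMS replicates 2 and 3 and shCtrl replicates 2 and 3 was left out, both knockdown calls were lost, and that of JAM3 was lost without either replicate 1 as well.

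Of 19 listed signalling partners of CEACAM1, CEACAM3 and CEACAM4, 16 were tested in the knockdown, and 2 rose and 0 fell (median 0.05), where 1.97% of all genes passed. These were RAC2, a GTPase of phagocytes, at 80.4 ± 28.4 CPM in shRBPMS and 14.8 ± 0.875 CPM in shCtrl (log2 change 2.44, SE 0.26, adjusted p = 0.0222), and SYK, a kinase that binds phosphorylated tails, at 15.8 ± 3.86 CPM in shRBPMS and 6.21 ± 1.04 CPM in shCtrl (1.34, SE 0.23, adjusted p = 0.0447, both edgeR). With the block 4 rose and 3 fell, against 28.1% of all genes called, with PTPN6, which encodes SHP-1, at 1.03 (adjusted p = 0.0012, edgeR). With RB98# 6 of 16 rose and 1 fell, a share near the 37.8% of all genes, and the fall was that of RAC2 (-0.42, adjusted p = 0.000919, edgeR). When any one of shRBPMS replicates 2 and 3 and shCtrl replicates 2 and 3 was left out, the knockdown calls of RAC2 and SYK were lost, and that of SYK also without either replicate 1.

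CEACAM6 is a granulocyte surface protein, and late neutrophil genes were mostly without a row. Of 20 listed, 6 were tested in the knockdown. BPI, a bactericidal granule protein, rose to 6.58 ± 1.17 CPM in shRBPMS, against 1.87 ± 0.578 CPM in shCtrl (log2 change 1.81, SE 0.30, adjusted p = 0.038, edgeR), and 0 fell, against 1.97% of all genes called. With the block 3 rose and 1 fell, against 28.1% of all genes called, with TCN1, a vitamin B12-binding granule protein, at 2.11 (adjusted p = 0.0137) and ABCA13 at -0.56. The defining genes LTF, CAMP and LCN2 had no row. With RB98# 0 of 4 passed, where 37.8% of all genes did. The call of BPI was lost without any shRBPMS library or without shCtrl replicate 2 or 3.

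Of 11 myeloid transcription factors tested, 1 rose and 0 fell without the block (median 0.10), where 1.97% of all genes passed. This was SPI1, which encodes PU.1, at 117 ± 4.56 CPM in shRBPMS and 41.3 ± 8.35 CPM in shCtrl (log2 change 1.5, SE 0.18, adjusted p = 0.0233, edgeR). With the block 3 rose and 2 fell, against 28.1% of all genes called. With RB98# 5 of 11 rose, with EGR1 (1.66) and CEBPB (0.82), and CEBPA fell (-0.81), against 37.8% of all genes called. The call of SPI1 was lost without any shRBPMS library or without shCtrl replicate 2 or 3.

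**Figure D4:**
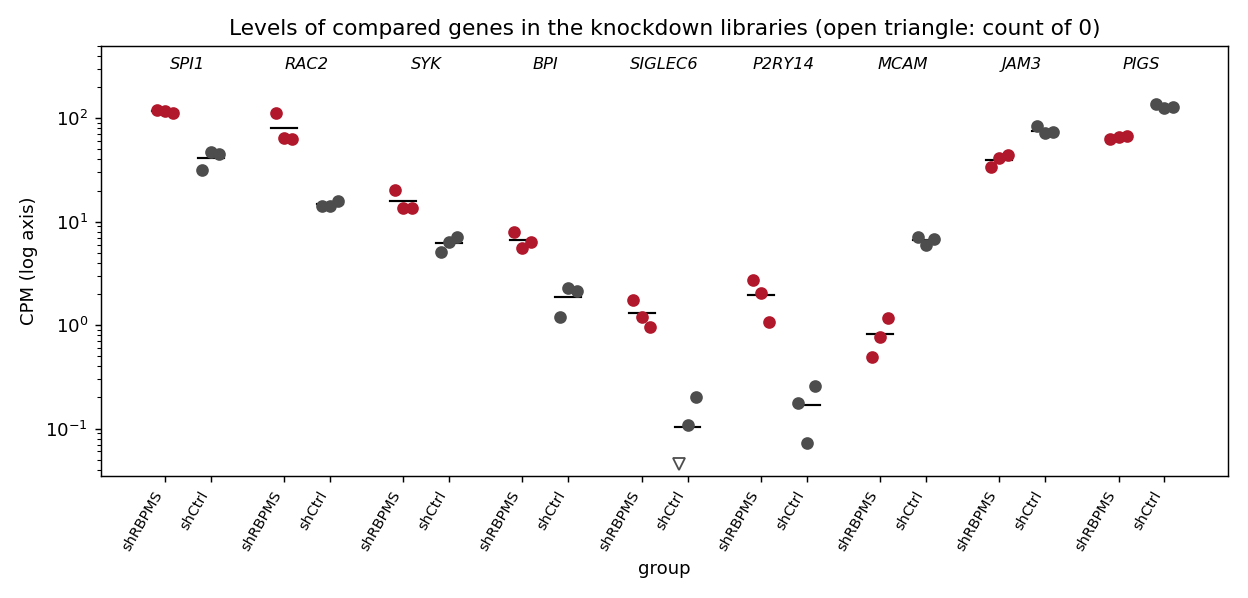
Levels in CPM on a log axis of 9 compared genes in the knockdown libraries, with points for libraries, lines for group means, shRBPMS in red and shCtrl in grey. SPI1, RAC2, SYK, BPI, SIGLEC6 and P2RY14 are higher and MCAM, JAM3 and PIGS lower in every shRBPMS library than in every shCtrl library. The open triangle is a count of 0 for SIGLEC6 in shCtrl replicate 1.

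Markers of epithelium and monocytes were set beside CEACAM6. Of 16 epithelial markers 3 had a row, EPCAM, MUC1 and ESRP1, and the keratins, CDH1 and the claudins had none. Their summed level was 49.3 to 86.4 CPM in shRBPMS and 39.6 to 62.4 CPM in shCtrl. With the block EPCAM rose (log2 change 0.52, adjusted p = 0.0053, edgeR), in a fit where 28.1% of all genes passed. EPCAM averaged 46.1 ± 16.8 CPM in shRBPMS and 31.4 ± 7.56 CPM in shCtrl (SD, n = 3 each). Of 12 monocyte markers 5 had a row, without CD14. Their sum was 18 to 35.9 CPM in shRBPMS and 12.2 to 14 CPM in shCtrl, without overlap. Of all single genes tested, 12.3% were likewise higher without overlap. None passed without the block, where 1.97% of all genes did. With it 3 rose, MS4A7, CSF1R and MNDA, against 28.1% of all genes called. Their part in the rise of CEACAM6 was not tested.

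Markers of lymphoid, erythroid and platelet cells were lower where they passed. Of 4 T and NK markers tested in the knockdown 2 fell without the block, where 1.97% of all genes passed. The sum of the 4 was 4.0 to 5.09 CPM in shRBPMS and 11.2 to 12.5 CPM in shCtrl. Of 4 megakaryocyte markers 2 fell as well, with a sum of 5.14 to 5.83 CPM in shRBPMS and 12.8 to 17.4 CPM in shCtrl. Without shRBPMS replicate 2 or 3 or shCtrl replicate 2 or 3 none of these passed. Of 4 B cell markers and 1 erythroid marker 0 passed without the block. With it 1 of each fell, against 28.1% of all genes called. With RB98#, where 37.8% of all genes passed, 1 of 3 epithelial markers (ESRP1), 1 of 3 B cell markers and the erythroid marker fell. Of 6 monocyte markers 1 rose and 1 fell, and none of 2 T and NK or 2 platelet markers passed. The call of ESRP1 was lost with DESeq2 and without DMSO replicate 1.

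The myeloblast markers named for the line all had a row, with a sum of 20097 to 23126 CPM in shRBPMS and 17531 to 23731 CPM in shCtrl. CD38 was low among them, at 0.756 ± 0.321 CPM in shRBPMS and 1.41 ± 0.524 CPM in shCtrl. MPO averaged 14162 ± 492 CPM in shRBPMS and 14741 ± 2768 CPM in shCtrl. Of 11 markers 3 rose and 0 fell without the block, where 1.97% of all genes passed. These were PTPRC (log2 change 2.29), ANPEP (1.79) and CD33 (1.71). CD33, another immunoglobulin-like surface protein of myeloid cells, was at 50.0 ± 9.54 CPM in shRBPMS and 15.3 ± 2.68 CPM in shCtrl. With the block 3 rose and 2 fell, against 28.1% of all genes called, and the falls were those of CD38 (-0.90, adjusted p = 0.0473) and RUNX1T1 (-0.68, adjusted p = 0.00535, both edgeR). With RB98# 6 of 11 rose and 3 fell, where 37.8% of all genes passed. CD33 was among the falls (log2 change -0.84, adjusted p = 1.74e-05, edgeR) and PTPRC among the rises (0.75, adjusted p = 7.38e-06, edgeR). The 3 knockdown calls were lost without shRBPMS replicate 2 or 3 or shCtrl replicate 2 or 3, where edgeR passed 0, 0, 2 and 0 genes of the whole table, with 1866, 2002, 2073 and 2010 at an unadjusted p under 0.05.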

How the data were processed

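Of 14 samples, the 10 RNA-seq libraries were used, and the other 4 (RIP-seq and m6A-seq) were not used here. Per the submitters' processing notes, the tools were DESeq2 1.32.0, featureCounts 2.0.1, HISAT2 2.2.1, fastp 0.22.0 and StringTie, with hg38/GRCh38 as the genome build and no role given for any tool. Per the file headers and their whole numbers, the count columns were deposited as raw counts per gene. The signal columns of the knockdown table were adjusted by the authors in a way not stated. The authors' deposited log2 fold change and p-value columns are quoted where named. The knockdown table held 16405 genes. The RB98# table held 12437 lines, and 12325 genes after 112 repeated lines were dropped. Left unused were 4 more columns of per-library values. Coordinates and exon lengths come from GENCODE v29, where 16195 and 12316 identifiers were found.

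Each experiment was fitted alone by the two-sided quasi-likelihood F test (edgeR 4.0.16, R 4.3.3) with TMM factors, filterByExpr (minimum count 10, minimum total 15), group alone as the design, and Benjamini-Hochberg adjustment over all genes tested at 0.05. In the knockdown, deviations from the group means of same-numbered libraries correlated at 0.852, 0.772 and 0.800 over 10606 genes. Same-numbered libraries also share a label set, and libraries of unlike number were not compared. These values therefore cannot tell pairing by number from a difference between the sets. A fit blocked on the numbers is given where it changes a call or a count. Intervals of count ratios are exact conditional ones. Named genes are the CEACAM members, RBPMS, the next 3 rises, neighbours within 500 kb, the 5 genes most like CEACAM6 and up to 3 genes per list with the largest change among those past 0.05. One of the genes most like CEACAM6 is not reported here. The members, the 16 gene lists and the rules were chosen with earlier results of these data known. Alternatives covered the scaling, the filter, DESeq2 1.42.0, limma-voom (limma 3.58.1), the block, the label set, the adjusted signal as log2(value + 1) and leaving out each library. Levels per kb were added after seeing the data.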

Additional observations from a re-analysis of the deposited data

How the results depend on the processing

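CEACAM6 stayed between 6.43 (label set 2 alone) and 7.35 (without shCtrl replicate 2) on the log2 scale under every alternative run, with 6.53 from the adjusted signal and 6.56 to 7.35 when 1 library was left out. The number of genes called in the knockdown, 320 in the main design, depended on the design. It was 1346 with DESeq2, 4549 with the replicate block, 5810 with the label set as a covariate, 6830 in label set 2 alone, 2681 with that covariate once replicates 2 and 3 were added up, 2349 from the adjusted signal, and 0 to 322 when 1 library was left out (0 without shRBPMS replicate 2, shRBPMS replicate 3 or shCtrl replicate 3, 2 without shCtrl replicate 2 and 37 without shRBPMS replicate 1). The cause was not tested. With RB98# 4659 genes were called, 2731 to 5028 when 1 library was left out, 2731 of them without DMSO replicate 2 and 2843 without DMSO replicate 1. Library totals alone gave 1690 up and 3276 down there, against 2530 and 2129 with TMM, and the median log2 change of all genes was then -0.10, against 0.0 with TMM. When 1 library was left out the log2 change ran from -0.16 to 0.34 for CEACAM19 and from -0.17 to 0.39 for CEACAM21 in the knockdown, and from -0.2 to 0.22 for CEACAM19 with RB98#. CEACAM19 changed sign in the knockdown without shRBPMS replicate 1 (-0.16) and in label set 2 alone (-0.14), and with RB98# without RB98# replicate 1 (0.13), without DMSO replicate 2 (0.22) and with the replicate block (0.0, where same-numbered libraries correlated at -0.0585, so that block pairs numbers only). CEACAM21 changed sign without shRBPMS replicate 1 (-0.17), in label set 2 alone (-0.23) and from the adjusted signal (-0.02). None of these changes passed the test in the settings named. The replicate block changed no other call of a CEACAM member. Of the 14 other genes named as called in the knockdown lists, 14 were lost in each fit that left out a replicate 2 or 3, 9 without shRBPMS replicate 1 and 3 without shCtrl replicate 1, and none changed direction. Of 50 listed or neighbouring genes called with RB98#, 12 were lost with library totals alone, 12 with DESeq2, 1 with the replicate block, and 5, 7, 19 and 20 without RB98# replicate 1, RB98# replicate 2, DMSO replicate 1 and DMSO replicate 2, and none changed direction. The few counts of CEACAM1 and CEACAM21, 8 to 22 a library, limit what can be seen of them.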
